A study of Mus musculus with 8 samples.

Results

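H19 and 9 other imprinted growth genes were followed in embryonic mouse heart cell cultures grown on a stiff or a soft silicone substrate. The members were the 10 rows of the coding gene table whose Ensembl identifiers carry the symbols H19, Igf2, Igf2r, Meg3, Dlk1, Cdkn1c, Grb10, Peg3, Plagl1 and Mest, out of 29844 rows. The set was proposed with the levels in these same 8 libraries already known, so the members count as chosen by their measured levels, and their differences by substrate and by library code are given as descriptions. All 10 passed the filter on low counts that left 14059 genes for testing. The cells were cardiomyocytes taken from E18.5 embryonic hearts and kept for 4 days in culture on polydimethylsiloxane (PDMS) of about 150 kPa (stiff, 4 libraries) or about 10 kPa (soft, 4 libraries). All 8 libraries came from mice listed as B6.Cg-Tg(HIST1H2BB/EGFP)1Pa/J, so that cells on both substrates carried the histone-GFP transgene. The hearts were digested whole, and no step that removes other heart cells is described. Each library has a code, and on each substrate the codes end in the digits 1 to 4. Libraries are therefore named stiff 1 to stiff 4 and soft 1 to soft 4, and values were compared by substrate and by this last digit. Before the last digit, the codes are alike within a substrate and differ between substrates, so that stiff and soft libraries form separate code series. A difference between substrates cannot be told apart from a difference between these series, and the same last digit in both need not mark a shared origin. What the digit stands for is not given in the sources used here.

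Imprinted genes are transcribed mainly from the copy inherited from one parent. Many of them act on growth before birth: as a rule, those active on the paternal copy promote it and those active on the maternal copy restrain it. Of the members, 5 are known in mouse as maternally expressed (H19, Igf2r, Meg3, Cdkn1c and Grb10, the last in most tissues) and 5 as paternally expressed (Igf2, Dlk1, Peg3, Plagl1 and Mest). H19 and Igf2 share enhancers and an imprinting control region, and both are highly expressed in fetal mesoderm and fall after birth. The counts do not separate the parental copies, so nothing here bears on which copy was active.

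The members lie in 8 imprinted clusters on GRCm38. H19 (ENSMUSG00000000031) occupies chromosome 7 from 142575530 to 142578146, Igf2 (ENSMUSG00000048583) follows 72.6 kb away, from 142650768 to 142666816, and Cdkn1c (ENSMUSG00000037664) lies 791.5 kb beyond it, from 143458339 to 143461059. Peg3 (ENSMUSG00000002265) stands near the other end of chromosome 7, from 6703892 to 6730462. Dlk1 (ENSMUSG00000040856, chromosome 12 from 109452485 to 109463336) and Meg3 (ENSMUSG00000021268, 109540996 to 109571729) are 77.7 kb apart. Igf2r (ENSMUSG00000023830) lies on chromosome 17 from 12682406 to 12769706, Grb10 (ENSMUSG00000020176) on chromosome 11 from 11930499 to 12037428, Plagl1 (ENSMUSG00000019817) on chromosome 10 from 13090832 to 13131694 and Mest (ENSMUSG00000051855) on chromosome 6 from 30733506 to 30748466. Several spans overlap a gene that can be transcribed from the same place: Igf2 overlaps Igf2os, Igf2r overlaps Airn, Meg3 overlaps Rtl1, Peg3 overlaps Peg3os, Plagl1 overlaps Hymai and Mest overlaps the end of Copg2. Whether the counting used strand is not given in the sources used here, so reads from such partners cannot be told apart from the member's own.

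H19, Igf2, Meg3 and Mest are also host transcripts of microRNAs, short RNAs that pair with messengers through a seed at bases 2 to 8. The mature sequences carried by H19, Igf2 and Mest, the 3 of the 4 hosts whose levels differed most between libraries, are given here from RefSeq (GRCm38.p6), with the seed in capitals. The 9 mature miRNAs inside the members' spans had 9 different seeds. The miRNAs themselves were not measured.
miR-675-5p (H19): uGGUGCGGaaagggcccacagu
miR-675-3p (H19): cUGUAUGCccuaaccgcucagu
miR-483-5p (Igf2): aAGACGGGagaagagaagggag
miR-483-3p (Igf2): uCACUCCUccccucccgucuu
miR-335-5p (Mest): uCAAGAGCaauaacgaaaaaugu
miR-335-3p (Mest): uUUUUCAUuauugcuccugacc

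Promoters were read for the letters bound by factors with a known tie to imprinted genes. RefSeq start windows of 300 bases (250 before to 50 after a start, GRCm38.p6) matched 8 members with 15 windows, some members having several starts. The hexamer TGCCGC, recognised by the imprint-maintaining zinc finger protein ZFP57, occurred on either strand in 6 of the 15 windows and in 5 of the 8 members (Igf2, Meg3, Grb10, Plagl1 and Mest), against 11.6% of all 32851 windows. Windows of these members held a median of 13 CpG dinucleotides, against 7 over all windows, and the hexamer itself holds a CpG. The windows were few and overlapping starts of Mest were counted as separate ones, so these are descriptions. GGGGCCCC, a motif of ZAC1 (the product of Plagl1), occurred in 1 window, that of Peg3, against 1.08% of all windows. GCCATNTT, a motif of YY1, occurred in 0 of the 15, against 6.05% of all windows. The 250 bases before the start are shown for Plagl1, Mest and Meg3, where the hexamer lies upstream of the start, and for Peg3. Capitals mark the hexamer, or its reverse complement GCGGCA, and in Peg3 the ZAC1 motif.
Plagl1, chr10:13090582-13090831, plus strand: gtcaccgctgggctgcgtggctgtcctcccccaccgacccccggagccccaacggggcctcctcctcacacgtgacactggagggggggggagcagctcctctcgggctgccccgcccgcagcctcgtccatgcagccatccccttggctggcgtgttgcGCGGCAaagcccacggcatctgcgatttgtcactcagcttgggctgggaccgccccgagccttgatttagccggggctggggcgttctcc
Mest, chr6:30737800-30738049, plus strand: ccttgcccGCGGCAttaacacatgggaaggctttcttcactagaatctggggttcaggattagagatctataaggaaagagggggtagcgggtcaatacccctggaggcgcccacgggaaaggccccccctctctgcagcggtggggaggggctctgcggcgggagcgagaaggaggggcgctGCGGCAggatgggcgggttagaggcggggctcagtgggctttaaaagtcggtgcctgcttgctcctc
Meg3, chr12:109540746-109540995, plus strand: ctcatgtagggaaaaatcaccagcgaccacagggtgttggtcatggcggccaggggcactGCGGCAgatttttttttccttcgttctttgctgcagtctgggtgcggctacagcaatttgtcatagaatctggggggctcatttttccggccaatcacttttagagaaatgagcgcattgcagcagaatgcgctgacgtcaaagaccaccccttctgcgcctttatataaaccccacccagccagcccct
Peg3, chr7:6730420-6730669, minus strand: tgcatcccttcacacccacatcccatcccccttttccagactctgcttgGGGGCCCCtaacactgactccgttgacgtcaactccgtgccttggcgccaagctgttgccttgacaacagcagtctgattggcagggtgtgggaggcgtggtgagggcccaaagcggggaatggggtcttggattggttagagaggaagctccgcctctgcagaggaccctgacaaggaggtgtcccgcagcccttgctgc

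Library totals ran from 27924797 to 34693673 counts on stiff and from 27646471 to 30701041 on soft, and a member's count in a library was never below 150 (Dlk1, soft 2). Levels are given as CPM, counts scaled to a common library size, with TMM factors that correct for differences in RNA composition. CPM takes no account of transcript length, so levels are compared between libraries and not between genes. The labels do not say whether libraries on one substrate were grown separately or came from different litters, so the replicate spread behind each p-value may be technical in part. Stiff 4 and soft 4 stood apart from the other libraries in several results below, which are therefore also given without them.

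The level of H19, a long noncoding RNA of fetal tissue, differed several-fold between libraries with different last digits and less between the stiff and the soft library of one digit. In stiff 1 to stiff 4 it stood at 715, 963, 1162 and 148 CPM, against 610, 860, 1293 and 238 CPM in soft 1 to soft 4. The libraries ending in 4 were the lowest and those ending in 3 the highest on both substrates, and the digits had the same order, 3, 2, 1 and 4 from high to low. The highest library exceeded the lowest by 7.83-fold on stiff and by 5.43-fold on soft. Within a digit, the stiff library held 1.17 times the soft level for digit 1, 1.12 times for digit 2, 0.898 times for digit 3 and 0.624 times for digit 4.

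Igf2, the fetal growth factor encoded next to H19, followed the same pattern at a smaller amplitude. It stood at 102, 112, 144 and 33.7 CPM in stiff 1 to stiff 4, against 88.9, 85.9, 143 and 43.1 CPM in soft 1 to soft 4. Digit 3 was again highest and digit 4 lowest on both substrates, while digits 1 and 2 changed places between substrates. The gap between digit 4 and the other digits was wider for H19 than for Igf2: the ratio of H19 to Igf2 CPM was 4.40 in stiff 4 and 7.01 to 8.63 in the other stiff libraries, and 5.52 in soft 4 and 6.86 to 10.0 in the other soft libraries.

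Igf2r, the receptor that takes IGF2 up for degradation, was also lowest in the libraries ending in 4. Its level was 1361, 1334, 1391 and 752 CPM in stiff 1 to stiff 4, against 1169, 1284, 1306 and 839 CPM in soft 1 to soft 4. Digits 1, 2 and 3 lay close together, between 1334 and 1391 CPM on stiff and between 1169 and 1306 CPM on soft, and digit 4 lay well below them. The ligand varied more than this receptor: the highest library exceeded the lowest by 4.27-fold on stiff and 3.31-fold on soft for Igf2, and by 1.85-fold on stiff and 1.56-fold on soft for Igf2r.

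Cdkn1c, which encodes the cell cycle inhibitor p57, had a different order of digits. It stood at 21.1, 33.9, 17.3 and 4.94 CPM in stiff 1 to stiff 4, against 29.1, 46.7, 22.7 and 7.13 CPM in soft 1 to soft 4. Digit 2 was highest and digit 4 lowest, and the order 2, 1, 3 and 4 held on both substrates, with a range of 6.88-fold on stiff and 6.55-fold on soft. Cdkn1c was the 1 member lower on stiff in all 4 digits, by 0.39 to 0.52 on the log2 scale. Of all tested genes, 5.68% were lower on stiff in all 4 digits and 9.96% differed in 1 direction in all 4, and 0 of the 10 members were higher on stiff in all 4.

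Mest, a paternally expressed gene for a hydrolase-like protein, ran against H19. Its level was 182, 133, 81.4 and 209 CPM in stiff 1 to stiff 4, against 211, 99.1, 69.4 and 157 CPM in soft 1 to soft 4. Digit 3, where H19 was highest, held the lowest Mest on both substrates, and digits 1 and 4 the highest. The ratio of H19 to Mest CPM spanned 20.1-fold over the stiff libraries and 12.3-fold over the soft ones.

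**Figure D1:**
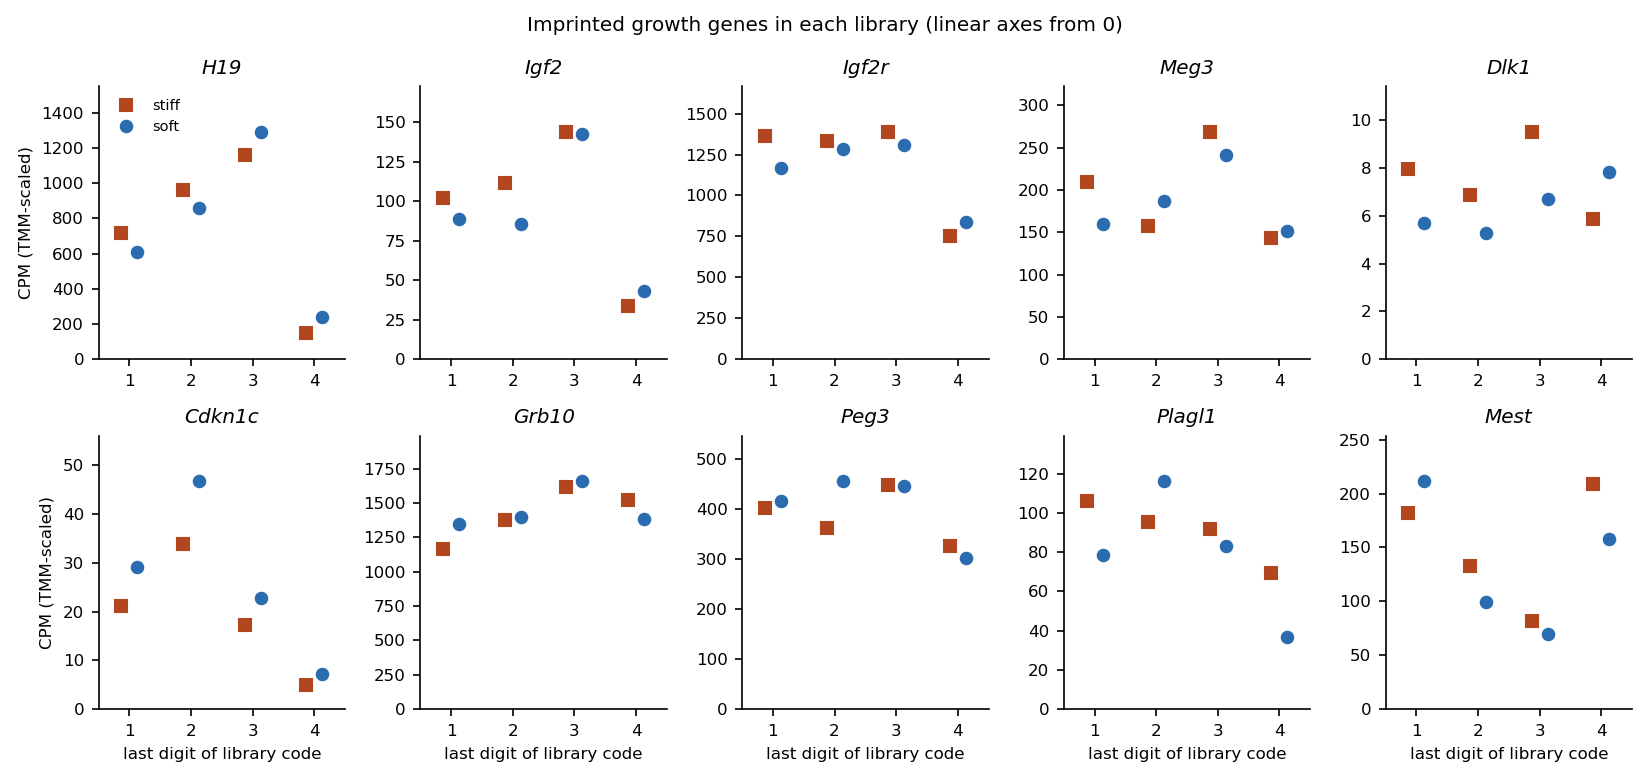
TMM-scaled CPM of the 10 members (linear axes from 0) by last digit of the library code, with 1 point per library, stiff as squares and soft as circles. H19, Igf2, Igf2r and Cdkn1c sat lowest in both libraries ending in 4, Mest lowest in those ending in 3, and the order of the digits was the same on stiff and on soft for H19.

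The zinc finger genes were lower in digit 4 too. Plagl1, which encodes a transcription factor known in mouse to act on H19, Igf2 and other imprinted genes, stood at 106, 95.6, 92.0 and 69.7 CPM in stiff 1 to stiff 4, against 78.4, 116, 83.2 and 37.0 CPM in soft 1 to soft 4. Its stiff and soft levels of one digit differed by up to 0.91 on the log2 scale, in digit 4, more than those of any other member. Peg3 lay between 326 and 449 CPM on stiff and between 302 and 456 CPM on soft, with the libraries ending in 4 lowest on each.

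Meg3 and Dlk1, neighbours of opposite parental expression, differed from each other. Meg3, a long noncoding RNA, stood at 210, 158, 269 and 143 CPM in stiff 1 to stiff 4, against 159, 187, 241 and 151 CPM in soft 1 to soft 4, with digit 3 highest and digit 4 lowest on both substrates. Dlk1, which encodes an EGF-repeat protein of the Delta family, had the fewest reads, 201 to 318 per stiff library and 150 to 238 per soft library, and lay between 5.87 and 9.54 CPM on stiff and between 5.28 and 7.85 CPM on soft. Its order of digits was not shared: digit 4 was lowest on stiff and highest on soft. Grb10, an adaptor that restrains insulin and IGF receptors, was among the steadiest with Peg3, between 1163 and 1618 CPM on stiff and between 1346 and 1657 CPM on soft, with digit 3 highest and digit 1 lowest on both.

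Across the members, 7 of 10 were lowest in digit 4 on both substrates (H19, Igf2, Igf2r, Meg3, Cdkn1c, Peg3 and Plagl1), and in the same 7 both libraries ending in 4 lay outside the range of the other 6 libraries. Of all tested genes, 17% had both libraries ending in 4 above or below the other 6. That share joins both directions, whereas the 7 members all lay below, and the share of genes below was not counted separately. The same order of the 4 digits on stiff and on soft was found for 2 members, H19 and Cdkn1c, and for 7.89% of tested genes. The members were chosen with results of these libraries known, so these counts describe them and support nothing further.

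The sum of squares of log2 CPM over the 8 libraries was split into a part between digits, a part between substrates and a remainder. The digit took 96.8% for H19, 96.3% for Igf2, 95% for Cdkn1c, 94.9% for Igf2r, 91.8% for Mest, 84.2% for Meg3, 82.7% for Peg3, 82.4% for Grb10, 69.5% for Plagl1 and 29.8% for Dlk1. The substrate took 0.280% for H19 and 0.168% for Igf2, and more than 5% only for Dlk1 (19.6%) and Plagl1 (10.0%). The median digit share was 88.0% over the 10 members and 55.0% over all tested genes, for which digits held a large share by construction, with 3 of the 7 degrees of freedom. A high share was not particular to the members. In lists described below, the median was 89.8% for proliferation genes, 81.6% for cardiomyocyte markers and 79.8% for fibroblast markers. Over the other lists with tested genes it ran from 45.9% (imprint maintenance) to 76.4% (endothelium). For 8 of the 10 members the digit share was above 75%, as it was for 23.4% of tested genes. Among genes with a mean of at least 32 CPM, 7 members and 28.4% of tested genes did so. In edgeR's quasi-likelihood F test of the digit given the substrate, 6 members had an adjusted p under 0.05 (H19, Igf2, Igf2r, Cdkn1c, Plagl1 and Mest), against 7.61% of tested genes. The same test called 11 of 12 proliferation genes, 8 of 12 cardiomyocyte markers and 9 of 13 fibroblast markers. At a mean of at least 32 CPM, 5 members were called, against 11.7% of such genes, and at an unadjusted p under 0.05, 7 members, against 19.4% of tested genes. Since the members were chosen on these levels, nothing is read from these counts. Without both libraries ending in 4 the share fell to 23.5% for Igf2r, 30.5% for Peg3 and 35.2% for Plagl1, and stayed at 93.9% for H19 and 93.3% for Mest, and 2 members, H19 and Mest, had an adjusted p under 0.05 in edgeR's digit test, against 3.41% of the 14066 genes tested then. With 1 library left out, the share of Dlk1 was 61.4% without soft 4, 58.4% without stiff 4 and 15.2% without stiff 3, and that of Peg3 was 48.3% without soft 4.

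**Figure D2:**
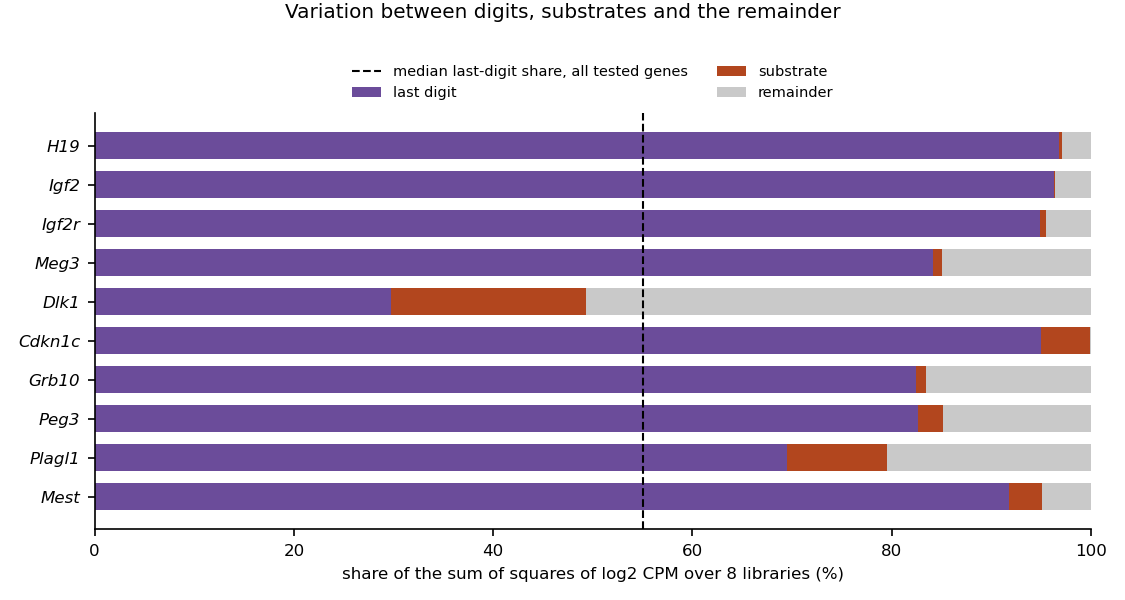
Share (%) of the sum of squares of log2 CPM over the 8 libraries that lay between last digits, between substrates and in the remainder, 1 bar per member. The dashed line is the median digit share of all tested genes, 55.0%, and Dlk1 was the member whose digit share, 29.8%, lay below it, although it was 61.4% without soft 4 and 58.4% without stiff 4.

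No member passed the test between substrates, which at the same time compared the stiff and the soft code series. H19 averaged 747 ± 439 CPM on stiff and 750 ± 443 CPM on soft (SD, n = 4 each). Its log2 fold change, stiff over soft, was -0.01 (SE 0.67). Igf2 averaged 97.8 ± 46.4 CPM on stiff and 90.2 ± 40.8 CPM on soft, and Igf2r 1210 ± 306 CPM on stiff and 1149 ± 215 CPM on soft. Cdkn1c averaged 19.3 ± 11.9 CPM on stiff and 26.4 ± 16.4 CPM on soft, with the lowest fold change of the members, -0.45 (SE 0.59). Dlk1 had the highest, 0.24 (SE 0.38), with 7.56 ± 1.57 CPM on stiff and 6.39 ± 1.15 CPM on soft. Estimates were higher on stiff for 6 members (48.1% of tested genes) and lower for 4 (51.9%). Their median was 0.08 on the log2 scale, against -0.01 over all tested genes. The stiff and soft libraries overlapped for all 10 members and did not overlap for 1.29% of tested genes. In edgeR's test over 14059 genes 0 were called (0%), 130 (0.925%) had an unadjusted p under 0.05, 0 of them members, and the adjusted p of every member was 0.99997.

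How small a substrate difference could be seen depended on whether the digit entered the fit. With substrate as the sole term, the unadjusted 95% interval of H19 ran from 0.341-fold to 2.91-fold. With the digit as a replicate block it ran from 0.757-fold to 1.14-fold around a log2 fold change of -0.11 (SE 0.15). The block narrowed the SE for 9 of the 10 members, with Dlk1 the exception, and the interval ran from 0.827 to 1.32-fold for Igf2, from 0.859 to 1.25-fold for Igf2r and from 0.929 to 1.44-fold for Mest. For Cdkn1c it ran from 0.514 to 1.03-fold around a log2 fold change of -0.46 (SE 0.25). No gene passed with the block either (0 of 14059 with edgeR, 360, or 2.56%, at an unadjusted p under 0.05, 0 of them members), so the absence of a call does not show that the members were alike on both substrates.

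**Figure D3:**
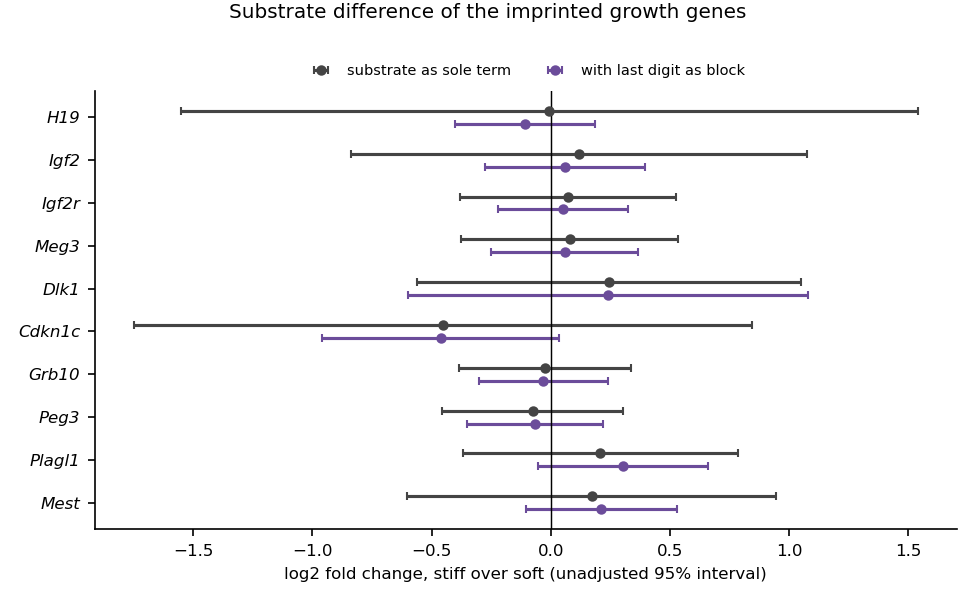
Log2 fold change, stiff over soft, of each member with its unadjusted 95% interval, from edgeR with substrate as the sole term (grey) and with the last digit as a block (purple). All intervals span 0, and that of H19 shortened from -1.55 to 1.54 without the block to -0.40 to 0.18 with it.

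Co-variation of H19 with the other members was read over the 6 libraries ending in 1, 2 or 3. The libraries ending in 4 were left out because they formed a separate cluster for H19. These values are descriptions without a test: the 6 points share digits in pairs, and each CPM shares its library's scaling. H19 and Igf2 varied together (Pearson r = 0.859, Spearman rho = 0.771, n = 6), whereas H19 and Mest varied inversely (r = -0.941, rho = -0.943). H19 and Grb10 had r = 0.832 (rho = 0.886) over these 6 libraries but r = 0.121 over all 8, since Grb10 was not low in digit 4; for H19 and Igf2 r was 0.982 over all 8. Over the same 6 libraries H19 and Cdkn1c had r = -0.308 (rho = -0.257) and H19 and Plagl1 r = -0.07 (rho = -0.09), although both fell with H19 in the libraries ending in 4. With the remaining members H19 had r = 0.594 (Igf2r), 0.667 (Meg3), 0.41 (Dlk1) and 0.314 (Peg3) over these 6. Pairs without H19 are not given here.

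**Figure D4:**
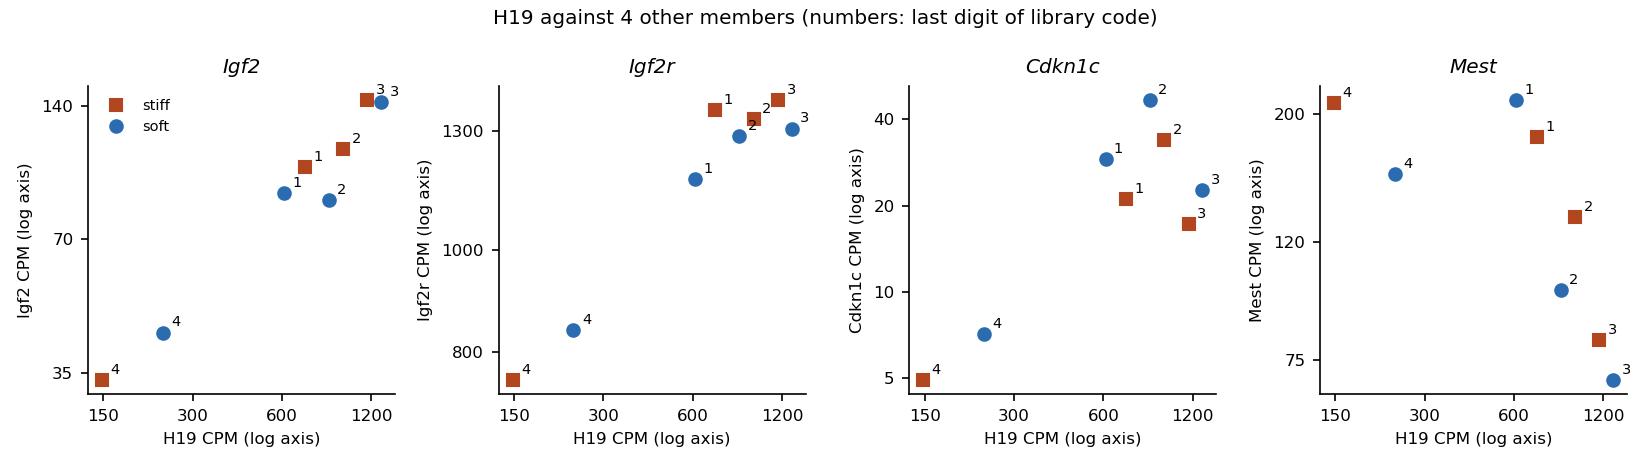
CPM of Igf2, Igf2r, Cdkn1c and Mest against CPM of H19 (log axes), with 1 point per library, stiff as squares and soft as circles, numbered by last digit. The libraries ending in 4 stand apart at H19 levels of 148 CPM on stiff and 238 CPM on soft, and among the other 6 Mest was lower where H19 was higher.

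Among 6184 other genes with a mean of at least 32 CPM, those most like H19 over the 8 libraries were named by Pearson r of log2 CPM. The 8 highest were Colec12 (r = 0.980), Scpep1 (0.960), Cdc16 (0.957), Myh7 (0.956), Myh10 (0.954), Gpc3 (0.947), Tle1 (0.946) and Cxcl12 (0.937). Without the libraries ending in 4, r ranged from 0.555 for Myh10 to 0.854 for Gpc3, so the likeness rested in good part on digit 4. Gpc3, a glypican known as a restraint on growth, stood at 336, 390, 356 and 167 CPM in stiff 1 to stiff 4, against 295, 348, 392 and 141 CPM in soft 1 to soft 4. Myh7, the beta myosin heavy chain of the fetal mouse ventricle, stood at 1688, 1449, 2184 and 502 CPM in stiff 1 to stiff 4, against 1243, 1481, 1626 and 780 CPM in soft 1 to soft 4. By the same measure Scpep1 (0.963), Pde7a (0.962) and Myh10 (0.960) were most like Igf2. Without the libraries ending in 4 these fell to 0.712, 0.792 and 0.731. Rnf220 (0.946), Taok2 (0.940) and Cd63 (0.928) were most like Dlk1, with 0.955, 0.946 and 0.919 without those libraries.

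Other genes of the members' clusters, and imprinted genes of other clusters, had lower median digit shares than the members, which were chosen on these levels. Of 35 further genes in the members' clusters, 24 were in the table and 14 were tested; none passed between substrates in either direction, 3 had higher and 11 lower estimates on stiff, and the median log2 fold change was -0.20. Their median digit share was 48.4%, and 1 of the 14, Tssc4, passed the digit test. Tssc4, from the cluster of Cdkn1c, ran the opposite way, with 26.8 CPM in stiff 4 and 7.72, 10.04 and 11.995 CPM in the other stiff libraries, and 40.4 CPM in soft 4 and 8.41 to 14.9 CPM in the other soft libraries. Those with the highest mean CPM were Cd81 (a tetraspanin), Nap1l4 (a histone chaperone) and Copg2 (a coat protein of transport vesicles), with log2 fold changes of -0.07 (SE 0.17), -0.02 (SE 0.19) and -0.00054 (SE 0.21). Copg2, whose end overlaps Mest, did not follow it in digit 4, where Mest was high and Copg2 lowest, at 91.1 CPM on stiff and 83.9 CPM on soft. Among the other digits both genes were lowest in digit 3, where Copg2 stood at 108 CPM on stiff and 122 CPM on soft. Of 33 imprinted genes from other clusters, 30 were in the table and 25 tested, with 0 passing between substrates. Their median was -0.06 on the log2 scale, with a median digit share of 63.0%, and 10 had higher and 15 lower estimates on stiff. In this list Gnas (a G protein subunit) had a log2 fold change of -0.08 (SE 0.16), Ube3a (a ubiquitin ligase) 0.22 (SE 0.22) and the amino acid transporter gene Slc38a4 -0.11 (SE 0.19), and 2 genes, Sfmbt2 and Dcn, passed the digit test.

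Receptors and regulators around the IGF2 signal were measured in the same fit. All 8 genes of this list were tested and none passed between substrates, and the median was 0.02 on the log2 scale; the median digit share was 65.7%. Igf1r, the main signalling receptor for IGF2, averaged 373 ± 92.2 CPM on stiff and 391 ± 101 CPM on soft, the insulin receptor gene Insr 197 ± 40.1 CPM on stiff and 181 ± 30.8 CPM on soft, and the adaptor gene Irs1 128 ± 19.6 CPM on stiff and 127 ± 42.4 CPM on soft. Igf1, the postnatal counterpart of Igf2, was the 1 gene of the list that passed the digit test (edgeR adjusted p = 4.49e-05), at 117 CPM in stiff 4 and 24.2 to 52.1 CPM in the other stiff libraries, and at 65.5 CPM in soft 4 and 27.7 to 56.9 CPM in the other soft libraries. A list for imprint maintenance held 16 genes, among them DNA demethylase genes, which do not themselves maintain imprints. Of these, 15 were tested and 0 passed between substrates, with a median log2 fold change of -0.05. Those with the highest mean CPM were Dnmt3a (a DNA methyltransferase), with a log2 fold change of -0.10 (SE 0.16), Trim28 (a corepressor that works with ZFP57), with -0.24 (SE 0.20), and Smchd1 (a chromatin protein), with -0.06 (SE 0.18). The maintenance methyltransferase gene Dnmt1 passed the digit test, at 68.0, 65.9, 106 and 152 CPM in stiff 1 to stiff 4, against 80.0, 59.8, 116 and 144 CPM in soft 1 to soft 4, as did its partner Uhrf1 and the DNA demethylase gene Tet2.

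Markers of the cell types in the cultures were measured beside the members. The 12 cardiomyocyte markers, of which 0 were at 0, summed to between 25349 and 36106 CPM on stiff and between 23934 and 42608 CPM on soft, with the libraries ending in 4 highest on each substrate. Of these genes, 8 were highest in digit 4 on both substrates and 1, Myh7, was lowest there on both. The natriuretic peptide gene Nppa differed between substrates in this, at 5004 CPM in stiff 4, the lowest of the stiff libraries, and 7806 CPM in soft 4, the highest of the soft ones. The alpha myosin heavy chain gene Myh6 stood at 5187 CPM in stiff 4 and 2765 to 3964 CPM in the other stiff libraries, and at 7425 CPM in soft 4 and 2634 to 3432 CPM in the other soft libraries. The 13 fibroblast markers summed to between 9352 and 14431 CPM on stiff and between 10200 and 17697 CPM on soft. Digits 3 and 4 lay above digits 1 and 2 on both. Dcn is also listed among the imprinted genes of other clusters. Col1a2, Col3a1 and Col1a1 had the highest means of the 13, and not every marker followed the sum. Pdgfra stood at 303, 276, 151 and 252 CPM in stiff 1 to stiff 4, against 290, 276, 144 and 211 CPM in soft 1 to soft 4. Of the 13, 4 were highest in digit 4 on both substrates and 0 lowest there on both. The 12 proliferation genes also summed higher in digits 3 and 4, at 631 to 1354 CPM on stiff and 652 to 1191 CPM on soft. H19 was highest in digit 3 and lowest in digit 4. Over the 8 libraries, log2 H19 had r = -0.871 with the log2 sum of the cardiomyocyte markers. The r was -0.221 for the fibroblast sum and -0.330 for the proliferation sum. Over the 8 lists with counts the highest r was 0.486, for smooth muscle and pericyte markers. These values are descriptions without a test. The 10 smooth muscle and pericyte markers summed to between 2378 and 3555 CPM on stiff and between 2583 and 4122 CPM on soft, highest in digit 3 on both. Epicardial markers (9 genes) ran from 829 to 1036 CPM on stiff and from 869 to 1306 CPM on soft, with the sum highest in digit 4 on both. Only 1 of the 9 genes was itself highest in digit 4 on both substrates, and 0 were lowest there on both. Leukocyte markers (9 genes) ran from 114 to 169 CPM on stiff and from 120 to 184 CPM on soft, with the sum lowest in digit 4 on both. Lyz2, with a mean of 95.8 CPM on each substrate, made up most of this sum. Among the 9 genes, 2 (Ptprc and Lyz2) were lowest in digit 4 on both substrates and 0 were highest there on both. In the digit test 0 of the 9 passed. Endothelial markers (10 genes) ran from 280 to 409 CPM on stiff and from 251 to 352 CPM on soft. All 7 erythroid markers were at 0.

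Small structured RNAs (7 genes), which vary with RNA preparation, summed to 3023 CPM in stiff 4, the lowest of the stiff libraries, and to 8760 CPM in soft 4, the highest of the soft ones. The sum consists mostly of Rn7sk. Of the 7 genes, 1 was highest in digit 4 on both substrates and 0 were lowest there on both. That gene was Rpph1, the RNA of RNase P. It stood at 215 CPM in stiff 4 and 66.9 to 121 CPM in the other stiff libraries. On soft it stood at 1310 CPM in soft 4 and 47.5 to 154 CPM in the other libraries. Rpph1 did not pass the digit test (edgeR adjusted p = 0.325). Rprl3 passed the digit test (edgeR adjusted p = 0.0219). Between substrates, without regard to digit, the exact permutation p over the 8 lists with any count was lowest for this list, at 0.257 (adjusted 0.960, two-sided), where 0.029 is the smallest that 4 against 4 allows. Within digits, the fibroblast sum was lower on stiff in all 4 pairs and each other list with counts in 1 or 3 of the 4; 4 pairs allow no two-sided p below 0.125. Whether the make-up of the cultures had a part in the members' differences between digits was not tested. Less RNA per cell and fewer cells of a type cannot be told apart in these bulk libraries.

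**Figure D5:**
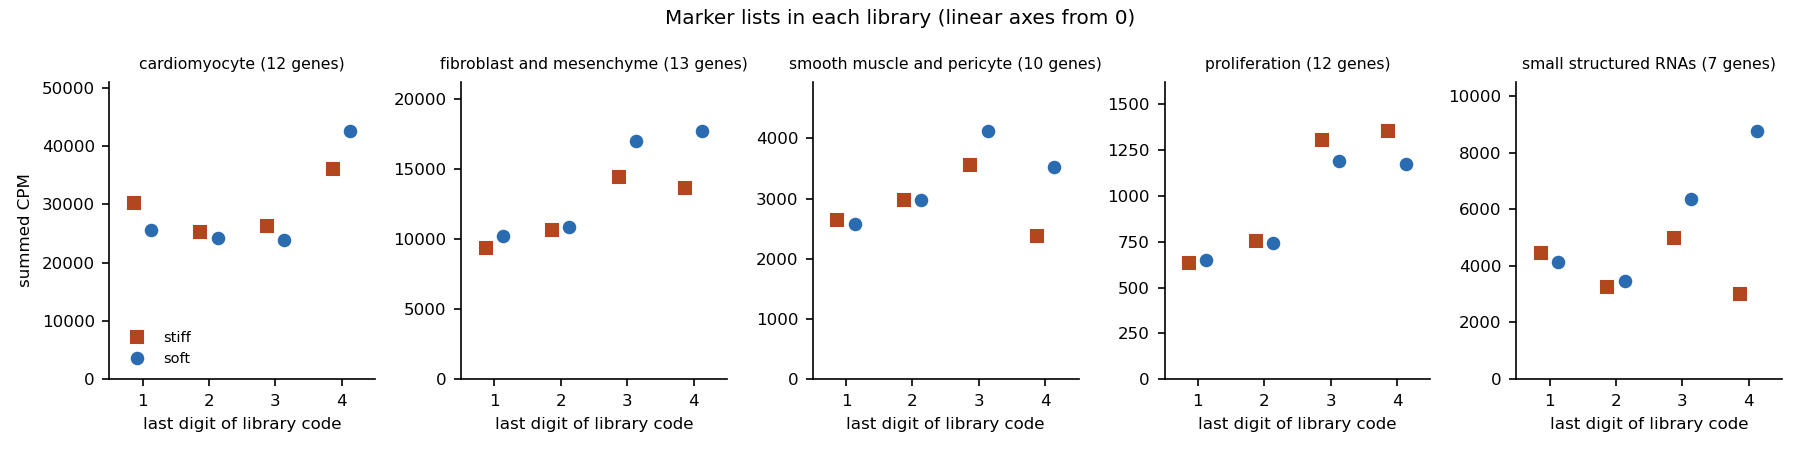
Summed CPM (linear axes from 0) of 5 marker lists by last digit of the library code, with 1 point per library, stiff as squares and soft as circles. Cardiomyocyte sums were highest in both libraries ending in 4, fibroblast and proliferation sums were higher in digits 3 and 4 than in 1 and 2, and small structured RNAs were at opposite ends in stiff 4 and soft 4.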

How the data were processed

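RNA was sequenced from 8 libraries (4 stiff, 4 soft), grouped by the substrate label. The authors deposited raw read counts per gene as whole numbers for coding and noncoding genes; the noncoding table was not used. GRCm38, HTSeq 0.6.1, TopHat2 2.0.14, TopHat, Bowtie2, Cufflinks, edgeR, DESeq2 and FastQC 0.11.2 appear in the submitters' processing notes without roles. Strand handling is not given in these sources. Of 29844 coding rows 29150 matched a symbol, and rows without one held 0.106% of counts. Positions are RefSeq's on GRCm38.p6.

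The main tests used edgeR 4.0.16 (R 4.3.3); DESeq2 1.42.0 and limma 3.58.1 served as alternatives, beside other scalings, filters, a replicate block and leaving out each library. Exact permutation tests used scipy 1.17.1. Genes were kept by filterByExpr (minimum count 10, minimum total 15), scaled by TMM and tested by robust quasi-likelihood F tests, for substrate alone and for the digit (3 degrees of freedom) given substrate. P-values were adjusted over all 14059 genes by Benjamini-Hochberg, with calls made below 0.05. Log2 CPM used a prior count of 2. Fits were tested on simulated counts.

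The members and lists were chosen with earlier results of these data known. The genes named are all members and the genes most like H19, Igf2 and Dlk1. In the imprinted, IGF and imprint-maintenance lists they are those past the substrate test or else the 3 with the highest mean CPM. In the cell type, proliferation and small RNA lists most genes, also those past the digit test, are not named. Gpc3 and Myh7 were singled out after their values were seen, as were Tssc4, Igf1, Dnmt1, Uhrf1, Tet2, Sfmbt2 and Dcn, named for the digit test. So were Myh6, Nppa, Pdgfra, Col1a1, Col1a2, Col3a1, Ptprc, Lyz2, Rn7sk, Rpph1 and Rprl3.

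Over all tested genes, deviations from the substrate mean correlated between the stiff and soft library of each digit at 0.104 to 0.305, and at -0.228 to 0.130 between other digits. All 4 exceeded 0.1, so the digits were taken to pair the libraries, on these data alone and not on a label. For digit 1 the pairing was weak. Stiff 1 correlated better with soft 2 (0.130) than with soft 1 (0.104), and soft 1 better with stiff 2 (0.112) than with stiff 1. No 2 libraries agreed within sampling noise: chi-square per degree of freedom was 45.9 to 233 over 28 pairs. Reads carry no stated molecular identifiers.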

Additional observations from a re-analysis of the deposited data

Results flagged for a closer look

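A gap between 1 library and the other 3 of its substrate, large for the group's range, was looked for in the 20 sets of 4 values (10 genes on 2 substrates); chance marks about 5% of such sets. Igf2r on stiff was marked, with a gap of 0.912 of the range, because stiff 4 stood at 752 CPM. Grb10 on soft was marked, with a gap of 0.842 of the range, because soft 3 stood at 1657 CPM.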

How the results depend on the processing

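Between stiff and soft, edgeR called 0 genes with other scaling factors, with no filter or a stricter one and with any 1 library left out, as did DESeq2 and limma-voom (130, 177 and 181 at an unadjusted p under 0.05 with edgeR, DESeq2 and limma-voom). With the replicate block edgeR called 0 (360 at an unadjusted p under 0.05) and DESeq2 0, and limma-voom, added after the data were seen, called 8, of which 0 were members. The digit test called 1070 genes, 822 to 1697 with 1 library left out (highest without stiff 4), 972 to 1363 under the planned scalings, filters and tools, and 480 without both libraries ending in 4; the cause was not tested. Of the 10 members it called 2 to 7 across these settings. The block changed no other call. Member fold changes moved by less than the spread between replicates in all 190 alternatives, but only Dlk1, Cdkn1c and Peg3 kept their sign in all; H19 ran from -0.30 to 0.39 with 1 library left out and Cdkn1c from -0.87 to -0.02. Member counts were 150 or more in every library; whether depth limited the calls was not tested.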
